A study of Mus musculus with 6 samples.

Results

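SALL4 is a DNA-binding zinc-finger factor, and its places on the chromosomes of mouse embryonic stem cells were mapped by CUT&RUN, in which an antibody held in permeabilised cells directs a nuclease to release the DNA around its target for sequencing. The intervals described here were called in the peak list of 1 wild-type SALL4 library and not in that of the other. They were selected on the deposited peak calls themselves. Overlapping lines were merged within each list, and an interval on chromosomes 1 to 19 was taken when no interval of the other wild-type list shared 1 bp with it. Replicate 1 gave 15692 such intervals among its 52825 autosomal intervals (29.7%), and replicate 2 gave 9564 among 46298 (20.7%). Together these 25256 intervals are set against the 37133 intervals of replicate 1 and the 36734 of replicate 2 that overlapped an interval of the other list, which are called shared. These numbers, the strength of the intervals and their overlap are what the choice rests on, so they are given as a description, with no test.

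The series holds 6 libraries from mouse embryonic stem cells cultured with 2i (a pair of kinase inhibitors) and the cytokine LIF. The wild-type cells are the line Sall4 F/F, in which both copies of the gene are floxed (flanked by recombination sites), and the knockout cells are the line Sall4 -/-. Each genotype is 1 line, with 2 libraries made with a SALL4 antibody (clone EE-30) and 1 IgG library, and the labels do not say whether the libraries of a line came from separate cultures. The IgG libraries were not used here by themselves, and the knockout lists held 0 intervals on chromosomes 1 to 19, so every interval below comes from the lists assigned to the floxed line. Some labels are at odds. The peak names of the replicate 2 list spell the genotype as KWT, which mixes KO and WT. For the IgG libraries the antibody field reads SALL4 under a different catalogue number. The sample titles were followed, and which library served as the control in peak calling is not given in the sources used here.

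SALL4 is known for a cluster of zinc fingers that contacts short AT-rich DNA, and for an amino-terminal stretch that recruits the NuRD complex, which removes acetyl groups from histones and moves nucleosomes. In embryonic stem cells it is known for supporting self-renewal and holding back differentiation genes. An interval in a CUT&RUN list is a stretch where released fragments pile up above a local background, and the pileup at its highest point (the summit) is the number of fragments that cover that base.

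Promoters with a summit are shown first, because the bases before a gene's start were at hand for the build of the lists. The printed stretch is fixed by the gene's start and can run past the interval. RefSeq sequences of GRCm38.p6 were used, and each line below gives the 250 bases before the start, 5′ to 3′ on the strand of the gene. Capitals mark the 5-letter word ATATT, which is part of the AT-rich DNA that SALL4 is known to bind, or its reverse complement AATAT. Nr1d1 (a nuclear receptor of the circadian clock, at chr11:98775378-98775627 on the minus strand) held a replicate 1-only summit and Nrxn3 (a synaptic adhesion protein, at chr12:89812233-89812482 on the plus strand) a replicate 2-only summit. Both are among the 3 strongest promoter members of their replicate, and neither stretch holds the word. The next pair was chosen after its values were seen, as the strongest promoter members with the word. Gm50270 (a predicted gene, at chr19:57323352-57323601 on the plus strand) belongs to replicate 1, with the word 37 bp outside its interval, and Evx1os (a transcript opposite Evx1, at chr6:52314833-52315082 on the minus strand) to replicate 2, with the word inside its interval. Mobp (a myelin protein, at chr9:120149492-120149741 on the plus strand) held a shared summit and is shown for contrast, picked in the same way.
Nr1d1: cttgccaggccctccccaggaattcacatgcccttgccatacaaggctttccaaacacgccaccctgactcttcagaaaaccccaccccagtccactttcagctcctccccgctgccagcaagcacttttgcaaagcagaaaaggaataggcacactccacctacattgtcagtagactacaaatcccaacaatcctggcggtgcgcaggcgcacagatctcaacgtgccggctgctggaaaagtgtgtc
Nrxn3: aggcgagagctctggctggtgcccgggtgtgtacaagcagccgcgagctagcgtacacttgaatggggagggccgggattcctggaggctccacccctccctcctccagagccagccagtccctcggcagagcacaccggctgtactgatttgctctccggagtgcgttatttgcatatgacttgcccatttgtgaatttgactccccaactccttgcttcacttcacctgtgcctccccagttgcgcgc
Gm50270: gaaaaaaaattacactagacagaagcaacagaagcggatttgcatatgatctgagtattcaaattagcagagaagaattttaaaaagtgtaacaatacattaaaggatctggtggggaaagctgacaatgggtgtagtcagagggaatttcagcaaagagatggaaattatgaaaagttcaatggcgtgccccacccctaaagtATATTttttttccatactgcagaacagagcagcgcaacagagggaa
Evx1os: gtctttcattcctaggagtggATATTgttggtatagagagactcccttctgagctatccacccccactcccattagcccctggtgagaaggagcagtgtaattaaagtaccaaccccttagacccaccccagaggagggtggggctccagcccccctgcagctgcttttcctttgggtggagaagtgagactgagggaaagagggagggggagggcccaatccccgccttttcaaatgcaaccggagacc
Mobp: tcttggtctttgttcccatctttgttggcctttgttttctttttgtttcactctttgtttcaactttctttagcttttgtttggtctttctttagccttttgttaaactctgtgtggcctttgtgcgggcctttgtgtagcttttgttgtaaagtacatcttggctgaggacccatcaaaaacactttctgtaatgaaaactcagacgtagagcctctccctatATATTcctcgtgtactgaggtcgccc

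The summit at Nr1d1 lay 157 bases before the start, with 14 fragments and a fold enrichment of 7.62, which is the authors' own value against the surrounding background. The nearest replicate 2 interval was 14290 bp away. At Nrxn3 the replicate 2 summit lay 110 bases before the start, with 11 fragments and a fold enrichment of 7.51, and the nearest replicate 1 interval was 69772 bp away. Gm50270 had 14 fragments and a fold enrichment of 7.62 in replicate 1, Evx1os 9 fragments and 6.80 in replicate 2. The other 4 of the strongest promoter members were Gm46298 (7.71) and Gm46186 (7.62) in replicate 1 and Gm39993 (7.65) and Ccdc170 (7.48) in replicate 2. The shared summit at Mobp was far higher, with 41 fragments and a fold enrichment of 26.7 in replicate 1. Each of the 1-list promoters thus has a value in 1 library only. What the other library held there is not given by its list, which stops at the caller's threshold.

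Over all promoters with a summit, the word was less frequent in windows with a 1-list summit than in windows with a shared one. The count is over the whole window, whether or not the word lies in the interval. The window counted here is the 300 bases from 250 before to 50 after the start, with both strands searched and overlaps between matches allowed, and a summit can lie in the windows of more than 1 gene. Among 31365 windows on the autosomes, 24.7% held it. It was found in 68 of 329 windows with a replicate 1-only summit, 20.7% (95% Wilson interval 16.6 to 25.4), and in 30 of 177 with a replicate 2-only summit, 16.9% (12.1 to 23.2). Shared summits had 29.5% (199 of 674 windows) in replicate 1 and 29.4% (192 of 653) in replicate 2. The difference from shared was -8.86 percentage points (Newcombe interval -14.2 to -3.10) in replicate 1 and -12.5 (-18.5 to -5.39) in replicate 2, and the 2 kinds of 1-list window differed by 3.72 points (-3.69 to 10.4), an interval that includes 0. Intervals of this kind cover counting error only, since each side is 1 library and the places in a library are not replicates, so no p-value is given anywhere in this text.

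Base composition moved with that difference. The median GC content of the windows was 56.7% and 56.3% for replicate 1-only and replicate 2-only summits, 52.3% and 52.7% for shared summits, and 53% for all windows. The median number of CpG pairs was 16 in both 1-list kinds, 12 in both shared kinds and 7 over all windows. Windows were therefore divided at the bounds of GC content that split all windows evenly, 48.3% and 58.7%. Among windows of low GC in replicate 1 the word was in 33 of 64 (51.6%, 39.6 to 63.4) for 1-list and 107 of 205 (52.2%, 45.4 to 58.9) for shared summits. In replicate 2 it was in 9 of 37 (24.3%, 13.4 to 40.1) and 101 of 197 (51.3%, 44.3 to 58.2). The middle class gave 15.1% and 21.7% in replicate 1 and 20.5% and 21.6% in replicate 2. Windows of high GC gave 11.1% and 14.4%, then 8.96% and 15.4%. A match is a description of the letters in the window and not of a bound site.

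The 1-list intervals were weak, narrow and mostly of 1 summit. Median fold enrichment was 4.44 in replicate 1-only and 4.08 in replicate 2-only intervals, against 7.11 and 6.54 in the shared intervals of the same lists. The median pileup was 6 fragments in both 1-list kinds and 11 and 10 in shared intervals. Their median width was 137 bp in both 1-list kinds and 277 and 266 bp in shared intervals. More than 1 summit was found in 0.484% and 0.199% of the 1-list intervals and in 17.2% and 15.0% of the shared ones.

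The share of intervals found in 1 list fell with each added fragment up to 16 fragments in replicate 1 and in replicate 2. Of the replicate 1 intervals with 4 fragments at the summit, the fewest in either list, 72.8% (71.3 to 74.3) had no counterpart in replicate 2. With 8 fragments it was 34.7%, and with 12 fragments 6.88%. Replicate 2 ran lower at every one of these heights, at 61.3% (59.6 to 62.9), 17.3% and 2.56%. Some tall intervals were still in 1 list, and 13.3% of replicate 1-only and 8.44% of replicate 2-only intervals had 9 fragments or more.

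**Figure D1:**
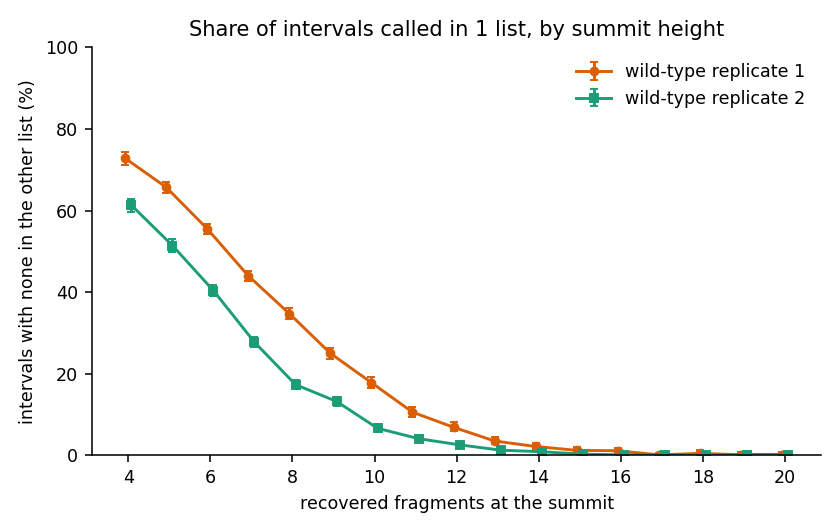
Share of the autosomal intervals of each wild-type list (y axis, percent) with no interval in the other list, by the recovered number of fragments at the summit (x axis, 4 to 20), with 95% Wilson intervals as bars. Both curves fall from their highest share at 4 fragments (72.8% in replicate 1 and 61.3% in replicate 2), and replicate 1 lies above replicate 2 up to 16 fragments.

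Replicate 1 held 1.64 times as many 1-list intervals as replicate 2. The ratio lay between 1.501 on chromosome 1 and 1.79 on chromosome 2, so no single chromosome carried it. The share of a chromosome's intervals that were in 1 list ran from 28.0% on chromosome 1 to 31.8% on chromosome 9 in replicate 1, and from 19.2% on chromosome 7 to 22.0% on chromosome 19 in replicate 2. Replicate 1 has the longer list. When replicate 1 was cut to its 46298 strongest autosomal intervals by −log10 p, the length of the replicate 2 list, 11281 intervals of replicate 1 and 11574 of replicate 2 had no counterpart, a ratio of 0.975. Lists of equal length give a ratio near 1 by construction, because shared intervals pair almost 1 to 1. This value was thus set in advance and says nothing about the libraries or about the excess of replicate 1. The depth of the libraries relative to the control used in peak calling, recovered from the deposited values, was 0.968 and 0.988 for replicates 1 and 2. The lists give no total of reads.

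The strongest 1-list intervals stand well above the median of their kind. In replicate 1 the highest fold enrichment was 13.8, with 19 fragments, at chr6:22446895-22447236, outside any gene and 54959 bp from the long non-coding RNA gene Gm38773. The next, with a fold enrichment of 12.4 at chr2:157010281-157010521, had its summit 8 bp outside an end of the coding gene Soga1. It was followed by chr2:87483847-87484058 (11.7), 5156 bp from Pramel7, a member of a gene family expressed in the early embryo. The last of the 5 strongest lay inside genes. They were chr16:4057160-4057421 (11.5) in Trap1, a mitochondrial chaperone, and chr8:111029639-111029828 (11.1), where Ddx19b, an RNA helicase, and Aars, the alanyl-tRNA synthetase, overlap.

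Replicate 2 had its highest fold enrichment, 11.6 with 16 fragments, at chr16:25522784-25522921, 79580 bp from the pseudogene Gm18896. A replicate 1 interval lay only 302 bp from it. The next 2 had 14 fragments and a fold enrichment of 10.2 each. The one at chr5:12869170-12869439 was 259 bp from a replicate 1 interval, and the one at chr18:50742825-50742999 was 38729 bp from the nearest. The other 2 lay in coding genes. An interval at chr14:64656950-64657272 (10.1) was in Kif13b, a kinesin motor, and one at chr1:12830404-12830558 (10.01) was in Sulf1, an enzyme that trims sulfate from heparan sulfate chains.

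Intervals just inside and just outside the rule show how fine its edge is. There were 9 replicate 1-only and 11 replicate 2-only intervals that abutted an interval of the other list without sharing a base, while 9 shared intervals of replicate 1 and 6 of replicate 2 overlapped the other list by 1 base. In Col6a3, a chain of collagen VI, chr1:90771143-90771267 of replicate 1 (10 fragments, fold enrichment 7.44) ends where chr1:90771268-90771402 of replicate 2 (9 fragments, 6.67) begins. Both count as 1-list intervals. Ahcyl2 and Usp7 (a deubiquitinating enzyme) held the other closest members, at chr6:29865135-29865244 in replicate 1 and chr16:8744797-8745026 in replicate 2. Just outside the rule lay the intervals chr3:124587619-124587772 of replicate 1 and chr3:124587519-124587619 of replicate 2, beside the pseudogene Gm9379, which share 1 base. The other intervals that shared 1 base and were taken by the naming rule lay in Nceh1 in replicate 1 and in the long non-coding RNA gene Platr3 in replicate 2.

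The first comparison asked whether the 2 kinds of 1-list interval lie differently around gene ends. An end here is either border of a gene in the RefSeq table of 49943 placed genes, without regard to strand. Summits within 1 kb of an end made up 9.73% (9.28 to 10.2) of the replicate 1-only intervals, 1527 of 15692, and 9.35% (8.78 to 9.95) of the replicate 2-only intervals, 894 of 9564. The difference was 0.384 percentage points, and its interval of -0.369 to 1.12 includes 0. Shared intervals had 8.66% and 8.63%. The 1-list share exceeded the shared one by 1.07 points (0.529 to 1.62) in replicate 1. In replicate 2 the difference was 0.718 points (0.0802 to 1.38), but its interval included 0 in 6 of the alternatives run, and it was 0.235 points (-0.424 to 0.920) when any overlap of the interval with the 1 kb around an end was counted. In replicate 1 it was 0.559 points (0.00262 to 1.13) with any overlap and 0.465 points within 500 bp. When shared intervals were weighted to the summit heights of the 1-list intervals, the differences were 1.03 and 0.6001 points. Ends of coding genes were within 1 kb of 5.54% and 5.37% of the 1-list summits and 4.52% and 4.50% of the shared ones. For ends of long non-coding RNA genes the shares were 3.17% and 2.81% against 3.12% and 3.09%.

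Inside genes the 2 kinds had nearly the same share. It was 63.1% (62.3 to 63.8) for replicate 1-only, 9898 summits, and 63.1% (62.1 to 64.0) for replicate 2-only, 6033 summits, and the difference had an interval of -1.23 to 1.23 points. Shared intervals lay inside genes less often, at 58.0% and 58.1%. The 1-list share was higher by 5.06 points (4.15 to 5.96) in replicate 1 and by 5.03 points (3.93 to 6.11) in replicate 2. Summit height moved with this value. Among shared intervals of replicate 1 the in-gene share was 61.5% with 4 or 5 fragments and 56.0% with 12 or more, and in replicate 2 it was 62.5% and 56.0%. Weighted to the heights of the 1-list intervals, the differences were 2.74 and 2.04 points.

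**Figure D2:**
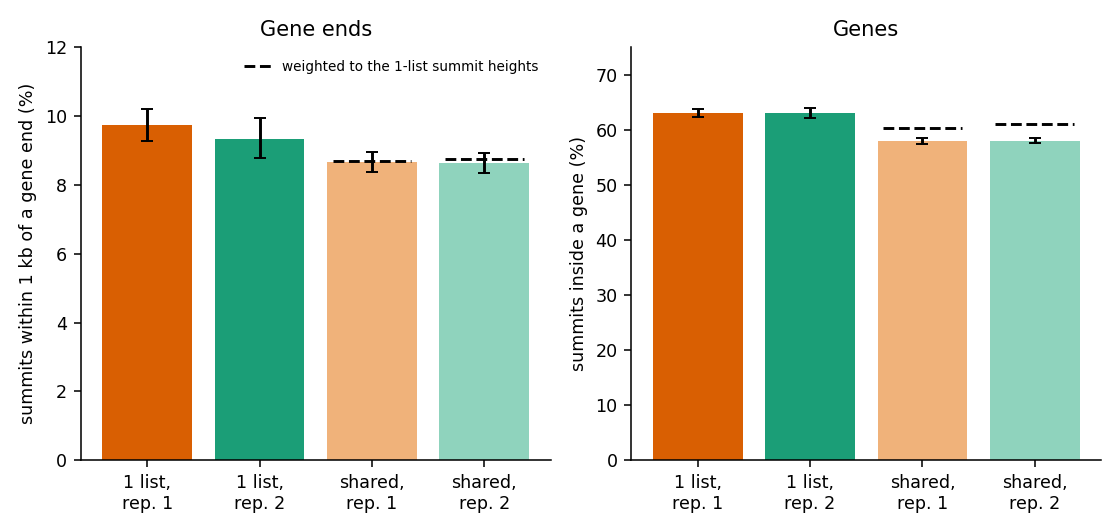
Share of summits (y axes, percent) within 1 kb of a gene end (left) and inside a gene (right) for the 1-list and the shared intervals of each wild-type replicate, with 95% Wilson intervals as error bars. Dashed lines give the shared intervals weighted to the summit heights of the 1-list intervals. The bars of the 1-list kinds are level with each other in genes (63.1% and 63.1%) and stand above the shared bars (58.0% and 58.1%).

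At gene ends the share of replicate 1-only intervals was higher among taller summits. With 4 or 5 fragments 8.77% (8.06 to 9.54) of them lay within 1 kb of an end, and with 6 to 8 fragments 9.12%. With 9 to 11 fragments the share was 14.4% (12.9 to 16.1), 263 of 1821, and with 12 or more it was 15.9% (11.998 to 20.7), 43 of 271. The replicate 2-only intervals had 8.55%, 9.88%, 10.6% and 10.2% in the same classes, the last resting on 9 of 88 intervals (5.47 to 18.3). The 2 kinds differed by 3.87 points (Newcombe interval 0.9697 to 6.52) with 9 to 11 fragments and by 5.64 points (-3.32 to 12.4) with 12 or more, where the interval includes 0. Shared intervals kept between 7.89% and 9.55% in every class. The level of the control under the summit moved with this too. Where the recovered background came to 1.5 control fragments or more, 68 of 355 replicate 1-only summits lay at a gene end, 19.2% (15.4 to 23.6), against 9.51% elsewhere. In replicate 2-only intervals it was 18 of 165, 10.9% (7.01 to 16.6), and in shared intervals 10.5% and 10.7%. Such high-control places were 2.26% and 1.73% of the 1-list intervals and 5.01% and 4.80% of the shared ones, and their part in the gene-end shares was not tested. These classes were formed after the main values were known.

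**Figure D3:**
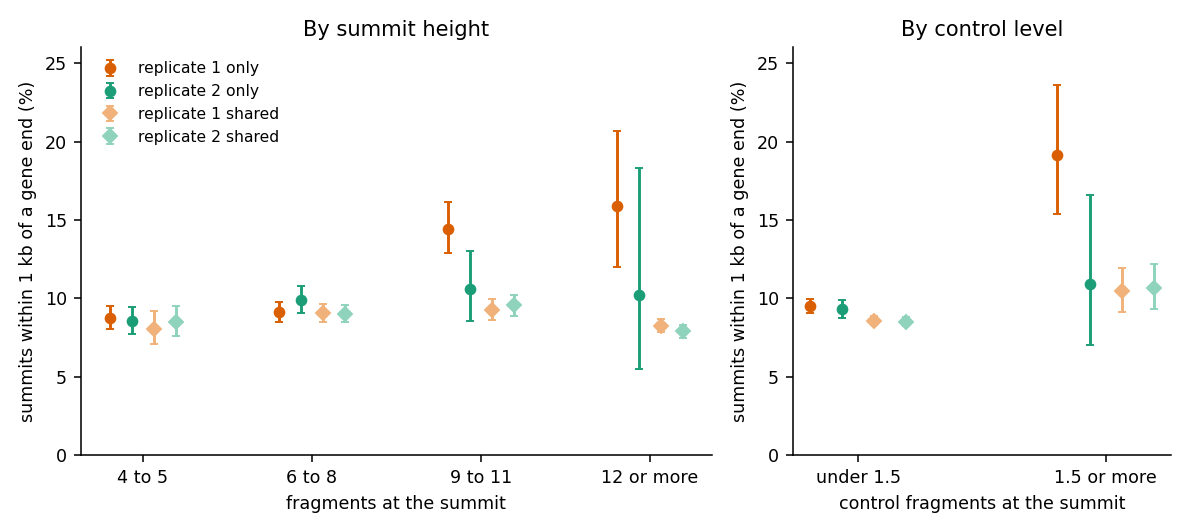
Share of summits within 1 kb of a gene end (y axes, percent) by the number of fragments at the summit (left) and by the recovered control fragments there (right), for 1-list (circles) and shared (diamonds) intervals, with 95% Wilson intervals as bars. Replicate 1-only intervals reach 14.4% with 9 to 11 fragments and 19.2% at 1.5 control fragments or more, while shared intervals stay between 7.89% and 10.7%.

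The next measure was how far a 1-list interval lies from the nearest shared interval of its own list. The median gap was 6430.5 bp for replicate 1-only and 6855 bp for replicate 2-only intervals. Shared intervals were closer to one another, at 4945 and 5243.5 bp. Within 1 kb of a shared interval lay 19.7% (19.1 to 20.3) and 18.3% (17.6 to 19.1) of the 1-list intervals, against 23.9% and 22.1% of the shared ones. The difference between the 2 kinds was 1.36 points (0.365 to 2.35). The smallest gap in a list bears on that value, as it was 107 bp in replicate 1 and 142 bp in replicate 2. Within 10 kb the shares were 58.7% and 57.5%, and within 100 kb 94.2% and 93.4%. For shared intervals the shares were 62.4% and 61.7% within 10 kb and 94.1% and 94.0% within 100 kb. The 2 kinds of 1-list interval differed by 1.16 points (-0.0913 to 2.42) at 10 kb and by 0.769 points (0.159 to 1.39) at 100 kb, with replicate 1-only intervals the closer.

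**Figure D4:**
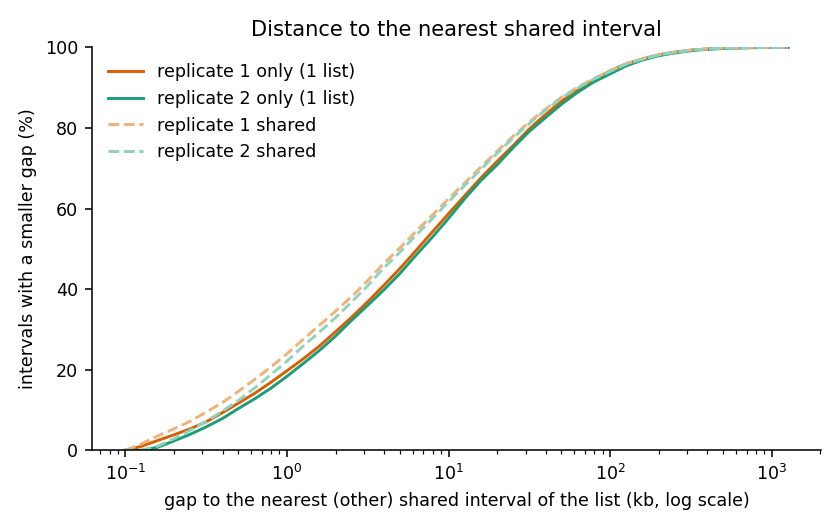
Percent of intervals (y axis) whose gap to the nearest shared interval of their own list is smaller than the distance on the x axis (kb, log scale), for the 1-list (solid) and shared (dashed) intervals of both replicates. The solid curves run close together, each below the dashed curve of its own replicate over most of the range. Medians are 6430.5 and 6855 bp against 4945 and 5243.5 bp, and all 4 curves meet near 100 kb. At the shortest gaps the replicate 1-only curve lies above the replicate 2 shared curve (5.29% against 4.93% at 251 bp).

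A 1-list interval often had something of the other replicate nearby. An interval of the other list of either kind lay within 100 bp of 2.61% of the replicate 1-only and 3.31% of the replicate 2-only intervals, and within 1 kb of 24.2% and 25.7%. Only some of these neighbours were themselves 1-list intervals, since 6.12% of replicate 1-only and 9.68% of replicate 2-only intervals had one of the other replicate within 1 kb. The replicate 1 kind, which the second share counts, is the more numerous.

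Position in genes varied with distance in the 1-list intervals. Shared intervals were not divided in this way, so the pattern cannot be called particular to the 1-list kinds. For replicate 1-only intervals the in-gene share was 62.3% under 1 kb from a shared interval, 66.5% (65.3 to 67.7) at 1 to 10 kb, 62.6% at 10 to 100 kb and 45.6% (42.4 to 48.8) at 100 kb or more. Replicate 2-only intervals had the same order, with 60.9%, 66.6% (65.1 to 68.1), 63.7% and 44.8% (40.9 to 48.7). Median pileup was 6 fragments in all of these classes. The 3 remotest members of each replicate had 4 to 9 fragments, and none of these 6 lay in a coding gene. In replicate 1 the farthest, at chr8:59028143-59028241, lay 1.07 Mb from a shared interval, with 6 fragments and the pseudogene Gm7499 as its nearest gene. In replicate 2 it was chr14:43298344-43298444 in the long non-coding RNA gene Gm9732, 1.198 Mb away and also with 6 fragments. The next in line were chr2:95643770-95643895 and chr8:59478273-59478494 in replicate 1, and chr8:102416510-102416680 and chr16:69062488-69062624 in replicate 2.

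Gene types were counted over the summits inside a gene. A coding gene was there for 87.3% (86.7 to 88.0) of the replicate 1-only and 88.3% (87.5 to 89.1) of the replicate 2-only in-gene summits. The difference of -0.990 points has an interval of -2.02 to 0.0622, which just includes 0. With replicate 1 cut to the length of replicate 2 it was -1.44 points (-2.52 to -0.361). Shared in-gene summits had 85.4% and 85.5%, so the 1-list kinds were higher by 1.97 points (1.16 to 2.77) and 2.88 points (1.92 to 3.798). With shared intervals weighted to the summit heights of the 1-list intervals, a setting chosen after seeing the data, these were 1.03 and 1.73 points. The opposite was seen for long non-coding RNA genes with no coding gene at the summit, at 11.5% and 10.7% in the 1-list kinds and 13.5% and 13.4% in shared intervals. Pseudogenes alone accounted for 0.748% and 0.646%, against 0.752% and 0.741% of the shared in-gene summits.

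Most genes reached by a 1-list interval also had a shared one. Of 20665 autosomal coding genes, 6257 (30.3%) had a replicate 1-only summit inside or up to 10 kb away, and 4468 (21.6%) a replicate 2-only summit. Shared summits of each list reached 8844 genes (42.8%), of which 8838 were the same genes. Only 1646 of the genes with a replicate 1-only summit had no shared summit of that list, 26.3%, and 1022 of those with a replicate 2-only summit, 22.9%. Both 1-list kinds were present at 2732 genes, which is 43.7% of the replicate 1 genes and 61.1% of the replicate 2 genes.

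Genes were then ranked by the number of 1-list summits inside them. This ranking takes no account of gene length. Over all coding genes, 32.0% of the replicate 1 summits inside them and 22.6% of the replicate 2 summits were 1-list. Etl4, a gene of 900.3 kb on chromosome 2, held 33 replicate 1-only and 14 replicate 2-only summits beside 59 and 58 shared ones. Its 1-list shares were 35.9% and 19.4%, near those over all coding genes. Macf1, which links microtubules to actin, held 28 and 13 in 338.2 kb, with 39 shared in replicate 1 (41.8% 1-list). Rere, a transcriptional corepressor of the atrophin family, held 25 and 12 in 340.5 kb, with 47 shared in replicate 1 (34.7% 1-list). In replicate 2 the leading gene was Qk, an RNA-binding regulator of splicing, with 31 replicate 2-only and 25 replicate 1-only summits in 112.9 kb. Stag1, a cohesin subunit, held 16 of each kind in 360.8 kb. In replicate 2, 55.4% of the summits in Qk and 55.2% of those in Stag1 were 1-list. Among genes without any shared summit inside them, Syncrip and Ankhd1 held 6 replicate 1-only summits each and Msl2, part of a histone acetyltransferase complex, held 4. For replicate 2 these were Tek, an angiopoietin receptor, with 4, Rif1, a regulator of replication timing, with 3, and Ythdf3, a reader of RNA methylation, with 3. Replicate 1-only summits were also in Tek (3), Rif1 (2) and Ythdf3 (3), so genes with no overlapping pair of intervals could still hold intervals from both libraries.

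Some shorter genes were dense in both kinds. Among 339 coding genes with at least 8 of the 1-list summits, a group looked at after the values were seen, Matr3, a nuclear RNA-binding protein, had the highest density at 50.2 per 100 kb. The median was 6.24 over these 339 genes and 3.17 over the 5208 coding genes with any such summit. Dhx9, an RNA helicase, followed at 50.1, then Qk at 49.6, Eif2s2, a translation initiation factor subunit, at 41.9, and the splicing factor Rbm39 at 39.4. The 12 densest also included Mtf2 and Suz12, which belong to Polycomb repressive complex 2, Cpsf6, a factor of RNA 3′ end formation, and Fxr1, Nufip2, Rtn4 and Marchf7. In these 12 genes 42 of 103 replicate 1-only summits (40.8%) had a replicate 2-only interval within 1 kb, and 41 of 97 the other way (42.3%). In all 339 genes it was 9.97% and 15.3%, and in all coding genes 6.59% and 10.5%. Density itself brings neighbours closer, and the genes were picked by it, so these shares are a description.

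Qk on chromosome 17 shows the pattern along 1 gene of 112.9 kb. It held 25 replicate 1-only intervals with fold enrichments from 3.36 to 6.20 (median 4.13), and 31 replicate 2-only intervals from 3.34 to 6.80 (median 4.53). All of these had between 4 and 9 fragments at the summit. The shared intervals were 26 in replicate 1 and 25 in replicate 2. They included 1 far above the rest, with 27 fragments in both lists and fold enrichments of 19.3 and 19.04. No replicate 1-only summit lay in the first 25 kb from the lower-numbered end, where 9 replicate 2-only summits lay. From 25.5 to 45.3 kb there were 7 replicate 1-only summits, 1 replicate 2-only summit and 0 shared ones. Of the 1-list intervals, 17 of 25 and 22 of 31 had an interval of the other list within 1 kb.

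**Figure D5:**
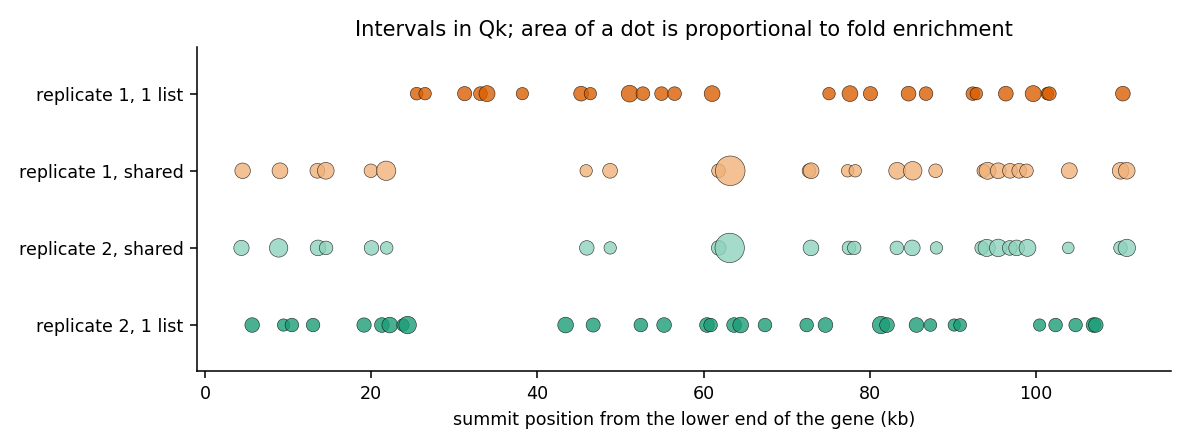
Position of every interval in Qk (x axis, kb from the lower-numbered end of the gene), with 1 row for each list and kind and dot area in proportion to fold enrichment. The 25 replicate 1-only and 31 replicate 2-only intervals lie in part on separate stretches near the left end, and the largest dot is the shared interval with fold enrichments of 19.3 and 19.04.

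Genes of stem cell identity and of SALL4's partners were then read from named lists, counting summits inside a gene or up to 10 kb away. Where a list had ties, or more than 2 of its genes are named, the further genes were chosen after their values were seen. In all, 31 of 60 autosomal genes had a replicate 1-only summit and 22 a replicate 2-only summit, while 34 had a shared one. The background for coding genes is 30.3%, 21.6% and 42.8%. The median number per listed gene was 1 replicate 1-only and 0 replicate 2-only summits, and over all coding genes it was 0 for both. Gene length and the gene content of the surroundings were not matched.

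Of the core pluripotency factors, Sox2 had 3 replicate 1-only and 1 replicate 2-only summits beside 6 and 5 shared ones. Pou5f1 (OCT4) had 1 of each kind and 1 shared, and Nanog had 0 and 1, with 2 shared. Among 11 genes of the naive state, 8 had a replicate 1-only and 5 a replicate 2-only summit, and all 11 had a shared one. Zfp42 (REX1) had 5 and 3 beside 4 shared. It and Dppa3, with 3 replicate 1-only against 2 shared summits, were the naive genes where replicate 1-only summits outnumbered the shared ones of that list. Nr5a2, a nuclear receptor, had 3 and 4 beside 8 shared, and Tfcp2l1, a transcription factor of the naive state, had 4 and 2 beside 8. At Klf2 and Tbx3 there were 0 of both kinds, although 10 and 4 replicate 1 shared summits were present. Within the Sall family, Sall1 had 4 and 2 and Sall4 itself 1 and 1, beside 5 and 6 shared summits. Sall3 had 0 of both 1-list kinds beside 5 shared summits, and Sall2 had 0 of every kind.

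Genes of the NuRD complex were reached by 1-list summits at 9 of 12 genes in replicate 1 and 6 of 12 in replicate 2, with shared summits at 7. Mta3 had the most, 4 and 5, beside 8 shared. Rbbp4, a histone chaperone, and Gatad2b followed with 3 and 1 and with 2 and 2, and Hdac2, a histone deacetylase, had 3 and 1. Chd4, the remodelling ATPase, and Mta1 and Mta2 each had 1 replicate 1-only summit and 0 shared, while Gatad2a had 2 and Mbd3 had 1 replicate 2-only summits, also with 0 shared. Formative and primed genes were reached at 6 and 2 of 10, led by Lef1, a transcription factor of the Wnt pathway, with 3 and 4, and Zic2 with 2 and 0. Neural genes were reached at 4 and 2 of 10, led by Pax6 with 2 and 0 and Neurog2 with 1 of each. Among mesoderm and endoderm genes 0 of 10 had a replicate 1-only summit. A replicate 2-only summit was at 2 of 10, the same number as in the neural and the formative and primed lists and close to the background of 21.6%, namely T (Brachyury) and Eomes with 1 each.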

How the data were processed

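The wild-type SALL4 lists were used, called by the authors on 1 library each. Per the submitters' processing notes, Trim Galore 0.6.0, cutadapt 1.18, FastQC 0.11.8, BWA 0.7.17 and MACS2 2.1.1.20160309 were used with GRCm38 (mm10), and their settings are not given in the sources used here. The deposited score is 10 times the −log10 q-value, cut to a whole number. The deposited fold enrichment is a ratio to the background at the summit, which is the genome-wide level or a higher local one. It was above the genome-wide level in 51.5% of the replicate 1-only and 45.9% of the replicate 2-only intervals. The deposited −log10 values of p and q (p-value and q-value) are those of the summit. Fold and p-value together gave a whole pileup for 100% of the lines (pseudocount 1, tolerance 0.0001). The deposited summit offset counts bp from the start.

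Lines were merged with the highest fold kept, and genes were placed with the GRCm38.p6 RefSeq table. Intervals of 95% follow Wilson and Newcombe. Named members are the strongest 5, remotest 3 and closest 2 per replicate, and named genes the 3 with most members, with and without shared summits, and 2 per list. Of the promoter members this rule takes, 1 per replicate is printed. Members and lists were chosen with earlier results of these data known. The counting was tested on simulated data. Python 3.11.15, numpy 2.4.6, scipy 1.17.1, pandas 2.3.3 and matplotlib 3.10.9 were used. Alternatives changed the overlap, q-value, list length, chromosomes, distances and gene types.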

Additional observations from a re-analysis of the deposited data

How the results depend on the processing

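No difference in a share changed direction beyond its interval under the alternatives run, but several values moved. With −log10 q at 3 or more, the members numbered 8097 in replicate 1 and 4067 in replicate 2, and the replicate 2 distance became 7212 bp. With no summit of the other list within 100 bp required, replicate 2 had 15177 members, and the median distances were 7292.5 and 7583 bp. With no interval within 1 kb they were 10727.5 and 11114.5 bp, as members near shared intervals drop out by construction. With equal list lengths the distances were 6997 bp (6651 to 7358) in replicate 1 and 7088.5 bp (6771 to 7417) in replicate 2, with overlapping intervals. Between summits they were 6668.5 and 7095.5 bp. The excess over shared intervals at gene ends in replicate 1 was 0.465 points within 500 bp. The excess inside genes was 3.39 and 3.04 points with the summit rule, and 2.74 and 2.04 points with shared intervals weighted by height. It was 3.44 points in replicate 2 with −log10 q at 3 or more. That limit was set on the 1-list intervals only, and shared intervals of every q-value were kept. At gene ends in replicate 2 the interval of the excess included 0 in 6 of the alternatives, with the lowest excess, 0.235 points (-0.424 to 0.920), for any overlap of the interval. No cause of these values was tested. No paired analysis was possible because the comparison is between the 2 replicates of 1 group, and leaving out a replicate gives no value, since membership needs both lists. With a median of 6 fragments at a summit, a missing counterpart in the other list does not show that the other library lacked signal there.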

Other observations

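In windows of 1 Mb, 1629 of 2385 held more replicate 1-only intervals, 405 more replicate 2-only intervals and 351 equal numbers. The windows named next were picked after their values were seen, and they differ in how many intervals they hold. On chromosome 18 between 63 and 64 Mb there were 0 replicate 1-only and 11 replicate 2-only intervals, beside 22 shared ones in each list. Chromosome 17 between 65 and 66 Mb held 3 and 12, and chromosome 1 between 140 and 141 Mb held 1 and 9. In the other direction, chromosome 18 between 77 and 78 Mb held 24 and 3, beside 18 shared ones in each list. Chromosome 2 between 59 and 60 Mb held 37 and 15, but it is a crowded window, with 83 and 82 shared ones. With this many windows, picked windows of this kind are to be looked at as values only.

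The tallest 1-list pileup was in replicate 2 at chr15:75085605-75085852, with 59 fragments over a recovered background of 30.6 and a fold enrichment of 1.90. In replicate 1 the tallest, at chr2:181928388-181928487, had 21 fragments over a background of 6.78 and a fold enrichment of 2.83. Both lie where the recovered background is far above its median of 0.47 fragments in the 1-list intervals. In replicate 2 that median is the genome-wide level, 0.4707 fragments.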
